A study of Mus musculus with 10 samples.

Results

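Atf5 and 8 other genes of the integrated stress response were followed in mouse retina after the antiepileptic drug vigabatrin, an irreversible inhibitor of the enzyme that breaks down GABA. The members were taken by gene name: Atf5, Atf4, Atf3, Ddit3, Trib3, Chac1, Asns, Sesn2 and Ppp1r15a. All 9 were found once each among the 35275 genes of the table, and all 9 passed the filter on low counts that left 17435 genes for testing. The set was put together with this comparison in view, because Atf5 stood out in it and other members had also been seen there. The members' differences between the groups are therefore given as a description, without a test.

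The vigabatrin group held 5 retina libraries from C57BL/6 mice aged 10 to 12 weeks that carried a subcutaneous osmotic pump delivering 140 mg/kg/day, with retinas taken on day 11. The control group held 5 retina libraries of the same strain and age, also from day 11. The treatment label calls these vehicle and the sample titles call them untreated. Libraries are named by group and title number. No label says that each came from a separate mouse, so errors describe the spread between libraries.

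The integrated stress response is a translational switch. Kinases that sense a shortage of amino acids, unfolded proteins in the endoplasmic reticulum, heme shortage or viral RNA phosphorylate the initiation factor eIF2, which lowers protein synthesis as a whole while a few messages with short reading frames upstream of their coding sequence are translated better. ATF4 and ATF5, both basic leucine zipper transcription factors, are among those messages. ATF4 then raises the transcription of genes for amino acid supply, for the factors ATF3 and CHOP (encoded by Ddit3) and for the feedback regulators TRIB3 and GADD34 (encoded by Ppp1r15a). In mouse fibroblasts ATF4 and CHOP also raise Atf5 transcription, and ATF5 has been linked to the stress response of mitochondria in mammalian cells.

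The gene starts of the members differ in the response elements they carry. Sequences 250 bases before to 50 bases after each annotated start were taken from RefSeq on build GRCm38.p6, which has the same coordinates as mm10, and all 9 members were matched, Atf5 with a pair of starts. The letters TGATGNAA, the core of the C/EBP-ATF response element through which ATF4 acts, were searched on both strands. They were present in 4 members, against 3.97% of all 32851 such sequences. The full cAMP response element TGACGTCA, which does not overlap those matches, was present in 1 member, Ppp1r15a, against 1.79% of all sequences. The 30 bases around each match are shown for these 5 gene starts. Each is written on the gene's own strand, with the match in capitals.
Atf3: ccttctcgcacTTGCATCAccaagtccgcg
Chac1: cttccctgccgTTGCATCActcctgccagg
Trib3: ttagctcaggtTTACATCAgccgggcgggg
Asns: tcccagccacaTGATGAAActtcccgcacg
Ppp1r15a: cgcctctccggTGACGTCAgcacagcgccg

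The matches in Atf3, Chac1 and Trib3 read the element on the opposite strand. The Atf3 window lies at chr1:191183425-191183454 on the minus strand, the Chac1 window at chr2:119351038-119351067 on the plus strand and the Trib3 window at chr2:152344028-152344057 on the minus strand. Those of Asns and Ppp1r15a lie on the minus strand at chr6:7693214-7693243 and chr7:45526262-45526291. The Trib3 match begins 14 bases after the start, whereas the first base of the match lies 110 bases upstream in Atf3, 193 in Chac1, 23 in Asns and 12 in Ppp1r15a.

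Neither motif was found at either start of Atf5, or in the windows of Atf4, Ddit3 and Sesn2, which says only that these letters are not in these windows. The 250 bases before each Atf5 start are shown because Atf5 is the member whose level differed most between the groups. The first start lies at the end of the deposited gene model (chr7:44816659-44816908, minus strand) and the second lies inside the gene (chr7:44815659-44815908, minus strand), and they have a G and C content of 66.8% and 56.0%.
Atf5 first start: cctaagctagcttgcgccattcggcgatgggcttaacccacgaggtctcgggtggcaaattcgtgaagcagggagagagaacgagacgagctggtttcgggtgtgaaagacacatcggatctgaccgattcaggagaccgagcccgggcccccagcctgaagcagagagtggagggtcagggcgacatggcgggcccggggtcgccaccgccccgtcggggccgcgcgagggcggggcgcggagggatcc
Atf5 second start: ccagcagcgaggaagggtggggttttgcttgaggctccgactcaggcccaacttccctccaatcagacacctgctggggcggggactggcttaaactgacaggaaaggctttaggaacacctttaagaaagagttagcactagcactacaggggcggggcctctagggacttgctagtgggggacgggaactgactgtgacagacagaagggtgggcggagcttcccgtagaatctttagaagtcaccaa

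Start codons upstream of the coding sequence, the feature through which ATF4 and ATF5 translation is regulated, were counted in GENCODE M21 transcripts. The 3 coding transcripts of Atf5 with an annotated leader held 2, 6 and 2 upstream ATG triplets in 373, 293 and 289 bases, and the 2 of Atf4 held 3 and 2 in 594 and 310 bases. At least 1 transcript of 7 members held one, the exceptions being Chac1 and Trib3. Over all members 16 of 19 such transcripts did, beside 58.2% of 50464 coding transcripts. The share of all genes with at least 1 such transcript was not worked out, so nothing is read from the 7. These are features of the sequence, and translation was not measured.

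The libraries held 36056135 to 54052502 counts. Summed retina markers, with none at 0, measured 51225 to 56350 CPM (counts scaled to a common library size) in vigabatrin libraries and 51518 to 56746 CPM in vehicle libraries. Summed lens markers ranged from 3.54 to 14871 CPM in vigabatrin and from 27.3 to 14270 CPM in vehicle libraries, with the 4 highest in vigabatrin 2344 and 2429 and vehicle 835 and 1582. Summed pigment epithelium and choroid markers ranged from 9.43 to 750 CPM in vigabatrin libraries and from 21.6 to 1581 CPM in vehicle libraries, the highest being vehicle 835. In whole retina, fewer cells of a type cannot be told apart from less RNA per cell.

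Atf5 was higher in every vigabatrin library than in any vehicle library. It measured 37.6, 64.2, 48.2, 37.4 and 43.3 CPM in vigabatrin 2344, 2347, 2349, 2428 and 2429, against 22.5, 25.5, 22.4, 23.5 and 23.2 CPM in vehicle 832, 835, 1580, 1582 and 2345. The lowest vigabatrin library thus lay well above the highest vehicle library, and vigabatrin 2347 was the highest of all. The means were 46.1 ± 11.0 CPM in vigabatrin and 23.4 ± 1.25 CPM in vehicle (SD, n = 5 each), a log2 fold change of 0.98 (standard error, SE, 0.13), or 1.97-fold. Of all tested genes, 99.9% had a lower log2 fold change.

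Atf5 also had a wider spread among vigabatrin libraries, in part through 1 library. Its coefficient of variation was 23.9% in vigabatrin and 5.35% in vehicle libraries, where counting alone would give about 2.15% and 3.07% at 841 to 2575 counts per library. Without vigabatrin 2347 the coefficient of variation in vigabatrin libraries was 12.4%. The log2 fold change was then 0.83, and it stayed between 0.83 and 1.04 whichever library was left out. Vehicle 2345 is the one vehicle library numbered like the treated ones. A fit adjusted for numbering, with a term for the range of the title number, sets vehicle 2345 alone against the vigabatrin libraries. In it the log2 fold change was 0.99 (SE 0.27). It was 1.14 without the 4 lens-rich libraries and 0.99 with the lens and pigment epithelium levels as terms. The fit adjusted for numbering rests on 1 vehicle library, and the part of lens tissue or of the numbering in the Atf5 difference was not tested further.

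**Figure D1:**
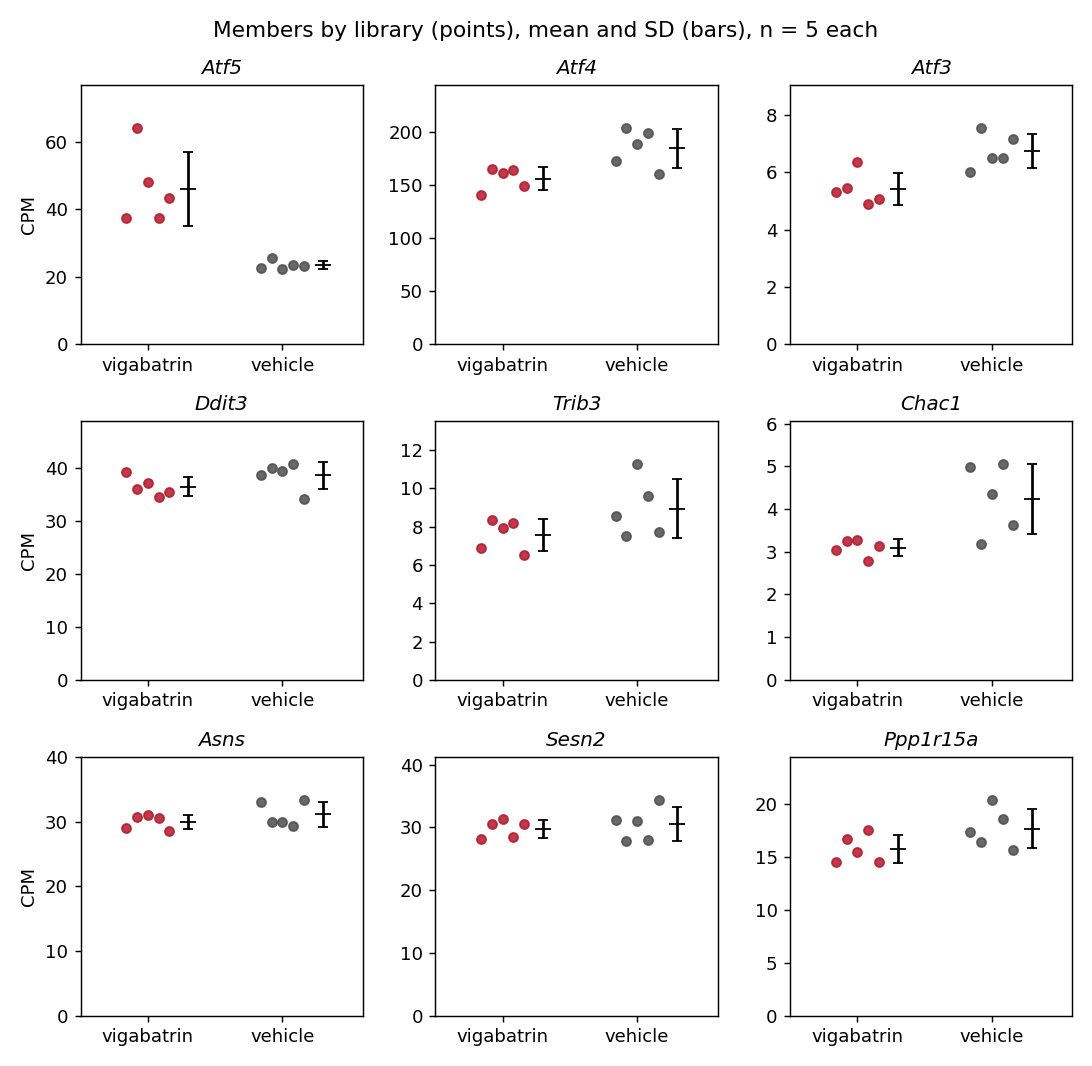
CPM of the 9 members in each library, vigabatrin left and vehicle right in each panel, with an axis from 0. Points are libraries, and the bar beside them gives the mean and SD of 5. The Atf5 points separate completely, from 37.4 CPM upward in vigabatrin and up to 25.5 CPM in vehicle, and in the other 8 panels the groups overlap.

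A small share of the annotated Atf5 exons overlaps other genes. Atf5 (ENSMUSG00000038539) lies on chromosome 7 of mm10 from 44812257 to 44816658 on the minus strand, and of its 1993 annotated exon bases 82 (4.11%) overlap exons of Nup62 and Il4i1 on the opposite strand. Whether counting used strand is not given in the sources used here. Nup62, which encodes a nuclear pore protein, averaged 23.2 CPM in vigabatrin and 23.3 CPM in vehicle libraries, with a log2 fold change of -0.01 (SE 0.06). Il4i1, which encodes an amino acid oxidase, averaged 23.1 CPM in vigabatrin and 23.3 CPM in vehicle libraries (-0.01, SE 0.13). Of 12 genes within 100 kb, 11 were tested, and their log2 fold changes ran from -0.15 to 0.03 with a median of -0.01. By edgeR's quasi-likelihood test 0 of them passed the adjusted threshold of 0.05, beside 0.00574% of all tested genes, so nothing is read from this count.

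The other 8 members did not share the direction of Atf5: all had lower means after vigabatrin, with a median log2 fold change of -0.20, where that of all tested genes was -0.001 and 50.6% of tested genes lay below 0. The median was -0.10 both without the 4 lens-rich libraries and in the fit adjusted for numbering. With the lens and pigment epithelium levels as terms it was -0.21. The groups overlapped for each of these 8. Non-overlapping groups were found for 1 of 9 members, Atf5, which was higher, and for 1.48% of all tested genes, of which 0.849% were higher and 0.631% lower. At an adjusted p under 0.05 (edgeR) 0 of 9 members passed, as did 0.00574% of tested genes. At an unadjusted p under 0.05 there were 4, against 7.36% of tested genes: 1 was higher, against 3.68%, and 3 were lower (Atf4, Atf3 and Chac1), against 3.69%. The rule used this contrast, so nothing is read from these counts.

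The 8 lie apart from Atf5 on mm10, except that Ppp1r15a shares its chromosome. In the deposited gene models Atf4 spans chromosome 15 from 80255184 to 80257540 and Ddit3 chromosome 10 from 127290774 to 127296288, both on the plus strand. Atf3 spans chromosome 1 from 191170296 to 191183340, Asns chromosome 6 from 7675169 to 7693254 and Sesn2 chromosome 4 from 132492032 to 132510501, all on the minus strand. On chromosome 2 lie Chac1, from 119351229 to 119354381 on the plus strand, and Trib3, from 152337422 to 152344032 on the minus strand. Ppp1r15a lies on the minus strand of chromosome 7 from 45522916 to 45526268, and 0.409% of its exon bases overlap Tulp2.

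Atf4, the central transcription factor of the response, was the most abundant member. It measured 141, 165, 162, 164 and 149 CPM in vigabatrin 2344, 2347, 2349, 2428 and 2429, against 173, 204, 189, 199 and 160 CPM in vehicle 832, 835, 1580, 1582 and 2345. Vehicle 2345 lay inside the vigabatrin range, while the other 4 vehicle libraries lay above it. The log2 fold change was -0.24 (SE 0.07). It was -0.09 (SE 0.06) without the 4 lens-rich libraries and -0.03 (SE 0.11) when adjusted for numbering. With the lens and pigment epithelium levels as terms it was -0.234 (SE 0.075). The part of lens tissue or of the numbering in the Atf4 difference was not tested further. On the level per base of the deposited gene length, the ratio of Atf5 to Atf4 was 0.217 to 0.369 in vigabatrin libraries. In vehicle libraries it was 0.112 to 0.138, without overlap.

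Atf3, a stress-induced factor that also belongs to the immediate early genes, was scarce. Vigabatrin 2344, 2347, 2349, 2428 and 2429 had 5.32, 5.46, 6.35, 4.88 and 5.08 CPM, against 6.03, 7.55, 6.49, 6.50 and 7.18 CPM in vehicle 832, 835, 1580, 1582 and 2345. Of the vigabatrin libraries 4 lay below the lowest vehicle library, and 2349 lay within the vehicle range. The log2 fold change was -0.32 (SE 0.10), -0.24 without the lens-rich libraries and -0.41 (SE 0.17) when adjusted for numbering, so it kept its direction in both. Ddit3, whose product CHOP promotes cell death under lasting stress, ranged over 34.6 to 39.2 CPM in vigabatrin (median 36.0) and 34.3 to 40.8 CPM in vehicle (median 39.5). Its log2 fold change was -0.08 (SE 0.05), and adjusted for numbering it was 0.09. Part of Ddit3, 10.9% of its exon bases, overlaps other gene models.

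The feedback regulators were lower on average and moved together across libraries. Trib3, a pseudokinase that binds and restrains ATF4, measured 6.87, 8.35, 7.95, 8.21 and 6.50 CPM in vigabatrin 2344, 2347, 2349, 2428 and 2429. In vehicle 832, 835, 1580, 1582 and 2345 it measured 8.58, 7.51, 11.3, 9.60 and 7.73 CPM. Ppp1r15a encodes GADD34, the subunit that directs a phosphatase to eIF2 and so ends the response. It measured 14.5, 16.7, 15.5, 17.5 and 14.5 CPM in the same vigabatrin libraries, against 17.3, 16.4, 20.4, 18.6 and 15.7 CPM in the same vehicle libraries. Vehicle 1580 was the highest library for both genes, and the groups overlapped for both. The log2 fold changes were -0.24 (SE 0.12) for Trib3 and -0.17 (SE 0.08) for Ppp1r15a. Without vehicle 1580 they were -0.14 for Trib3 and -0.11 for Ppp1r15a, and without the 4 lens-rich libraries they were -0.17 and -0.10. With the lens and pigment epithelium levels as terms they were -0.27 and -0.18. Adjusted for numbering they were -0.03 (SE 0.17) and 0.01 (SE 0.12).

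Chac1, an enzyme that degrades glutathione and a known ATF4 target, had the lowest fold change of the members. It measured 3.03, 3.24, 3.27, 2.79 and 3.14 CPM in vigabatrin 2344, 2347, 2349, 2428 and 2429, against 4.97, 3.18, 4.35, 5.05 and 3.62 CPM in vehicle 832, 835, 1580, 1582 and 2345. The vigabatrin libraries were tightly grouped, and 3 of them lay below the lowest vehicle library, 835. The log2 fold change was -0.45 (SE 0.13), or 0.730-fold, at 129 to 259 counts per library. The coefficient of variation was 6.31% in vigabatrin libraries, close to the 8.25% that counting alone would give, and 19.5% in vehicle libraries, against 7.19% from counting. Adjusted for numbering, the log2 fold change was -0.22 (SE 0.23), and without the lens-rich libraries it was -0.48 (SE 0.14).

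Asns and Sesn2 differed least. Asns, the enzyme that makes asparagine, ranged over 28.5 to 31.0 CPM in vigabatrin and 29.4 to 33.4 CPM in vehicle, with a log2 fold change of -0.06 (SE 0.05), or -0.03 without vehicle 2345. Sesn2, a sestrin that restrains the growth kinase mTORC1 when leucine is short, ranged over 28.1 to 31.4 CPM in vigabatrin and 27.8 to 34.4 CPM in vehicle. Its log2 fold change was -0.03 (SE 0.06), and it was 0.01 without vehicle 2345. The groups overlapped for both genes. Vehicle 2345 was the highest library for both, and adjusted for numbering they measured -0.16 (SE 0.08) and -0.21 (SE 0.09).

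**Figure D2:**
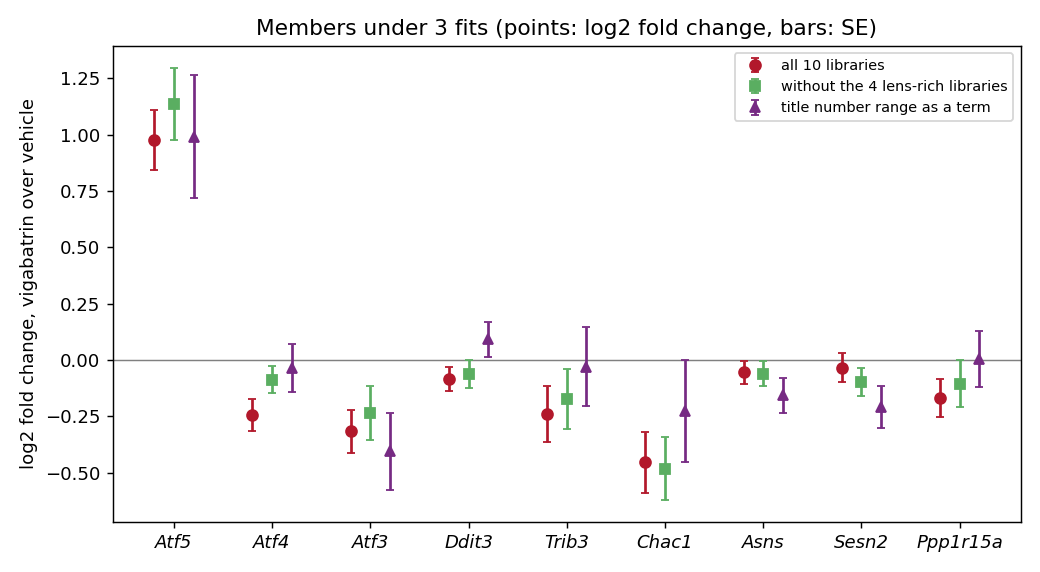
Log2 fold change of vigabatrin over vehicle for the 9 members under 3 fits, with standard errors as bars: all 10 libraries, without the 4 lens-rich libraries, and adjusted for numbering. Atf5 lies between 0.98 and 1.14 in all 3, while Atf4, Ddit3, Trib3 and Ppp1r15a lie between -0.03 and 0.09 in the fit adjusted for numbering.

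Compared per kilobase of the deposited gene length, Atf5 stood higher among the members after vigabatrin. In vigabatrin libraries Atf4 led at 90.6 ± 6.23 CPM per kb, followed by Ddit3 at 37.7 ± 1.83, Atf5 at 25.4 ± 6.08 and Asns at 14.9 ± 0.570 (SD, n = 5). In vehicle libraries Atf4 averaged 107 ± 10.6 CPM per kb, Ddit3 39.9 ± 2.66, Asns 15.4 ± 0.948 and Atf5 12.9 ± 0.690 (SD, n = 5). The ranges of Atf5 and Asns did not overlap in either group. On the deposited lengths Atf5 thus stood above Asns in vigabatrin libraries and below it in vehicle libraries. These lengths were 1815 bases for Atf5, 2016 for Asns and 969 for Ddit3. The annotated GENCODE M21 exons cover 1993, 2735 and 1713 bases, which lengthens Asns and Ddit3 more than Atf5. On those lengths the mean of Atf5 does not lie below that of Asns in vehicle libraries. Nor does it lie below that of Ddit3 in vigabatrin libraries, so the place of Atf5 among these genes depends on the lengths used. The 5 others kept 1 order in both groups. In vigabatrin libraries Sesn2 had 8.58 CPM per kb, Ppp1r15a 5.61, Trib3 3.74, Atf3 2.73 and Chac1 1.89. In vehicle libraries Sesn2 had 8.78 CPM per kb, Ppp1r15a 6.29, Trib3 4.41, Atf3 3.40 and Chac1 2.59. Neighbours in this order overlapped only in vehicle libraries, Trib3 with Atf3 and Atf3 with Chac1.

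**Figure D3:**
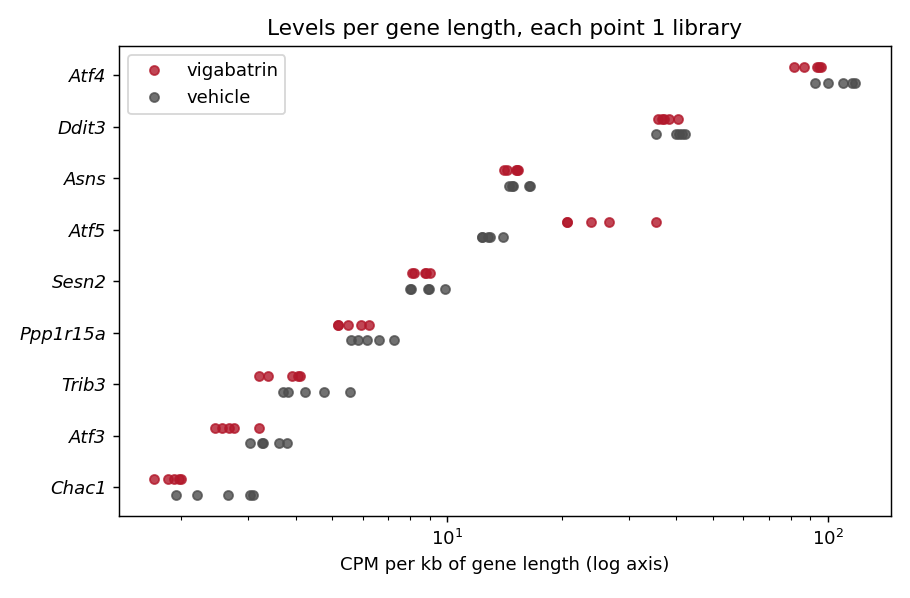
CPM per kb of the deposited gene length on a log axis, one row per gene with vigabatrin libraries above vehicle libraries, each point 1 library. Atf5 lies to the right of Asns in vigabatrin libraries, at 20.6 to 35.4 CPM per kb, and to the left of it in vehicle libraries, at 12.3 to 14.0 CPM per kb.

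Whether the members vary together from library to library does not depend on the contrast that chose them, and was tested on log2 CPM after each group's mean had been subtracted. Of 36 pairs, 1 passed: Trib3 and Ppp1r15a had a Pearson r of 0.94 over 10 libraries (exact two-sided permutation within groups, p = 0.000625, adjusted over 36 pairs 0.0225). Spearman's rho was 0.90 (exact permutation p = 0.00257, adjusted 0.0925), and without the 2 libraries farthest from the median of Trib3 r was 0.92. Leaving out any single library kept r between 0.90 and 0.96, but the adjusted p then ran from 0.0375 to 0.212 and passed in 2 of 10 cases, without vigabatrin 2347 or 2428. Both genes were low in the lens-rich vigabatrin 2344 and 2429 and in vehicle 835, but high in the lens-rich vehicle 1582. Of the vehicle libraries not rich in lens, 1580 was the highest for both genes, and 832 and 2345 lay below the group mean. Vehicle 1580 and 1582, close in title number, were thus the only vehicle libraries above the group mean for both. The permutation did not hold the title number fixed, and the part of the numbering in this pair was not tested. Without the 4 lens-rich libraries r was 0.93 (exact permutation p = 0.0556, where the smallest possible with 3 libraries a group is 0.0278).

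**Figure D4:**
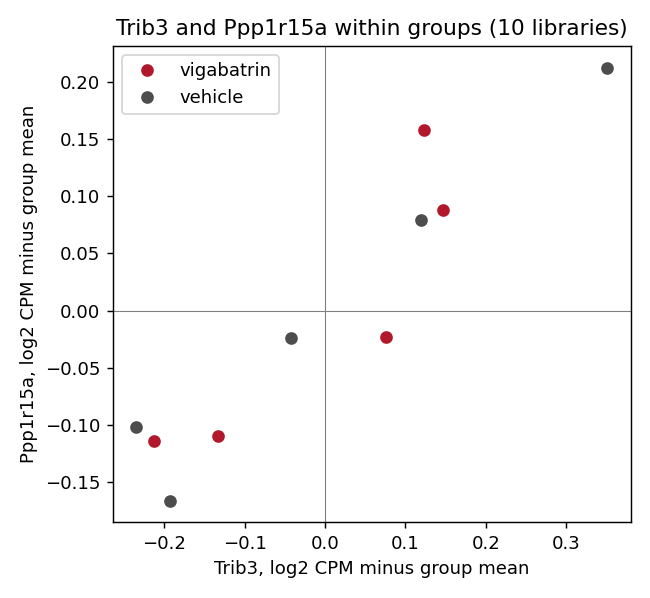
Trib3 (x axis) against Ppp1r15a (y axis), each as log2 CPM minus the mean of its group, with 5 vigabatrin and 5 vehicle libraries as points. The points run from lower left to upper right in both groups, with an r of 0.94 over the 10.

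Atf5 followed none of the other members at the threshold. Its r was 0.41 with Atf4 (exact permutation p = 0.177, adjusted 0.867; rho 0.50, p = 0.111, adjusted 0.702; r without the 2 farthest libraries 0.65). It was 0.25 without vigabatrin 2344 and -0.01 without the 4 lens-rich libraries. With Atf3 it was 0.43 (exact permutation p = 0.295, adjusted 0.867; rho 0.66, p = 0.0532, adjusted 0.479; r without the 2 farthest 0.60). It was 0.77 without vigabatrin 2347 (exact permutation p = 0.0278, adjusted 0.5) and 0.30 without vigabatrin 2428 (same test, p = 0.525, adjusted 0.894). With the remaining 6 it lay between -0.03 for Ddit3 and 0.20 for Sesn2, all with adjusted p of 0.976 in the same test. Among the 28 pairs without Atf5 the median r was 0.07, with 15 positive. Ddit3 and Sesn2 had the most negative r, -0.71 (exact permutation p = 0.0379, adjusted 0.544; rho -0.66, p = 0.0478, adjusted 0.479; r without the 2 farthest -0.74). It was -0.37 without vehicle 2345 and -0.42 without the 4 lens-rich libraries. With 10 libraries an r of intermediate size cannot be told from 0.

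The genes most like Atf5 within groups, among 13380 with a mean of at least 1 CPM, were Slc2a6 (r = 0.91), Cisd1 (0.89), the pseudogene RP23-8J15.1 (0.88), Mterfd2 (0.88) and Tceal1 (0.86), each over the 10 libraries. They are the top of a long ranking, and no test attaches to them. Unlike Atf5, all 5 had overlapping groups. Slc2a6, a sugar transporter of the GLUT family, ranged over 7.86 to 9.74 CPM in vigabatrin and 7.05 to 8.14 CPM in vehicle, with a log2 fold change of 0.19. Cisd1, an iron-sulfur protein of the outer mitochondrial membrane, averaged 43.3 ± 3.44 CPM in vigabatrin and 44.0 ± 1.35 CPM in vehicle (SD, n = 5 each; log2 fold change -0.02). The other 3 had log2 fold changes between -0.06 and 0.08. Vigabatrin 2347, highest for Atf5, was also the highest library for all 5. Without it r was 0.83 for Slc2a6, 0.56 for Cisd1, 0.62 for RP23-8J15.1, 0.75 for Mterfd2 and 0.58 for Tceal1.

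The wider pathway was described by 5 lists chosen by function, of 18, 22, 20, 18 and 15 tested genes. In them 0 genes passed the adjusted threshold in either direction by edgeR, DESeq2 or limma-voom. Over all 17435 tested genes these called 1, 87 and 3, so nothing is read from the 0. At an unadjusted p under 0.05 the lists held 1, 1, 4, 2 and 2 genes, against 7.36% of all tested genes. The eIF2 kinases and eIF2 machinery had 18 genes tested, 8 with higher and 10 with lower means, and a median log2 fold change of -0.01. Eif2b2, a subunit of the exchange factor that recycles eIF2, had 26.4 to 29.9 CPM in vigabatrin and 29.1 to 32.6 CPM in vehicle (-0.11, edgeR adjusted p = 0.645). Impact, which restrains the kinase GCN2, had 221 ± 24.6 CPM in vigabatrin and 201 ± 10.8 CPM in vehicle (0.13, edgeR adjusted p = 0.727). Its value was 0.06 without vigabatrin 2349, the highest library at 263 CPM, and 0.03 when adjusted for numbering. Gcn1l1, the activator of that kinase, had a log2 fold change of 0.04. Adjusted for numbering, Gcn1l1 measured -0.13, and it was -0.04 without the lens-rich libraries.

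Genes for amino acid synthesis and transport that ATF4 controls had 22 members tested, 4 with higher and 18 with lower means, and a median of -0.05. Slc7a3, a transporter of basic amino acids, had 8.48 ± 0.858 CPM in vigabatrin and 10.5 ± 1.34 CPM in vehicle (log2 fold change -0.31, edgeR adjusted p = 0.569). It measured -0.03 when adjusted for numbering. Mthfd2, a mitochondrial folate enzyme, measured -0.15 (edgeR adjusted p = 0.744), and -0.26 when adjusted for numbering. The most abundant, the transaminase gene Got1 and the glycine transporter gene Slc6a9, measured -0.02 and 0.01. The median of the list was -0.01 without the lens-rich libraries and 0.03 when adjusted for numbering.

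Other factors and effectors of the response had 20 of 22 members tested, 7 with higher and 13 with lower means, and a median of -0.08. Cdkn1a, the cell cycle inhibitor p21, had the lowest value, -2.31 (edgeR adjusted p = 0.569), which rested on vehicle 835 at 48.5 CPM. The 5 vigabatrin libraries had 2.10 to 2.87 CPM and the other 4 vehicle libraries 2.29 to 5.56 CPM, and without vehicle 835 the log2 fold change was -0.61. Vehicle 835 was also the library richest in pigment epithelium and choroid transcripts, whose part in this value was not tested. Gdf15, a secreted stress hormone, had 0.504 ± 0.124 CPM in vigabatrin and 0.806 ± 0.276 CPM in vehicle (-0.68, edgeR adjusted p = 0.611). Vldlr, a lipoprotein receptor, and Trib2, a relative of Trib3, were the most abundant and measured 0.04 and -0.03. Adjusted for numbering, the median of the list was 0.08, with Cdkn1a at 0.17 and Gdf15 at 0.19.

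Mitochondrial chaperones and proteases, to which ATF5 has been linked in mammalian cells, mostly had lower means after vigabatrin, and the list as a whole was not tested. Of 18 tested genes 3 had higher and 15 lower means, with a narrow spread of log2 fold changes from -0.11 to 0.03 and a median of -0.05. Spg7, a subunit of a protease of the inner membrane, measured 138 to 149 CPM in vigabatrin and 153 to 160 CPM in vehicle libraries. Its groups did not overlap, and its log2 fold change was -0.11 (SE 0.03, edgeR adjusted p = 0.52). The groups did not overlap for 1 of the 18, beside 1.48% of all tested genes. Spg7 was named for its small p, so nothing is read from this. Trap1, a mitochondrial chaperone of the HSP90 family, had 53.5 ± 2.68 CPM in vigabatrin and 57.3 ± 2.21 CPM in vehicle (-0.10, edgeR adjusted p = 0.666). It measured 0.00 when adjusted for numbering. Hspa9, the chaperone mortalin, ranged over 166 to 176 CPM in vigabatrin and 171 to 208 CPM in vehicle (-0.08), and it measured 0.00 without the lens-rich libraries.

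The relatives of Atf5 in the ATF and CREB family had 15 of 18 members tested, 8 with higher and 7 with lower means, and a median of 0.03. No relative approached the fold change of Atf5 apart from Creb3l3, a membrane-bound factor known from liver. Creb3l3 was scarce, at 1.35, 1.10, 1.15, 0.929 and 1.18 CPM in vigabatrin 2344, 2347, 2349, 2428 and 2429, against 0.653, 0.806, 0.858, 0.527 and 0.828 CPM in vehicle 832, 835, 1580, 1582 and 2345. The groups did not overlap, and the log2 fold change was 0.64 (SE 0.17, edgeR adjusted p = 0.471). Atf2, a factor activated by stress kinases, had 76.7 to 83.7 CPM in vigabatrin and 69.2 to 74.7 CPM in vehicle libraries, again without overlap. Its log2 fold change was 0.13 (SE 0.04, edgeR adjusted p = 0.501). The groups did not overlap for 2 of the 15 tested relatives, beside 1.48% of all tested genes. Creb3l3 and Atf2 were named for their small p, so nothing is read from this. Crebzf and Atf6, the most abundant, measured -0.07 and 0.06.

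**Figure D5:**
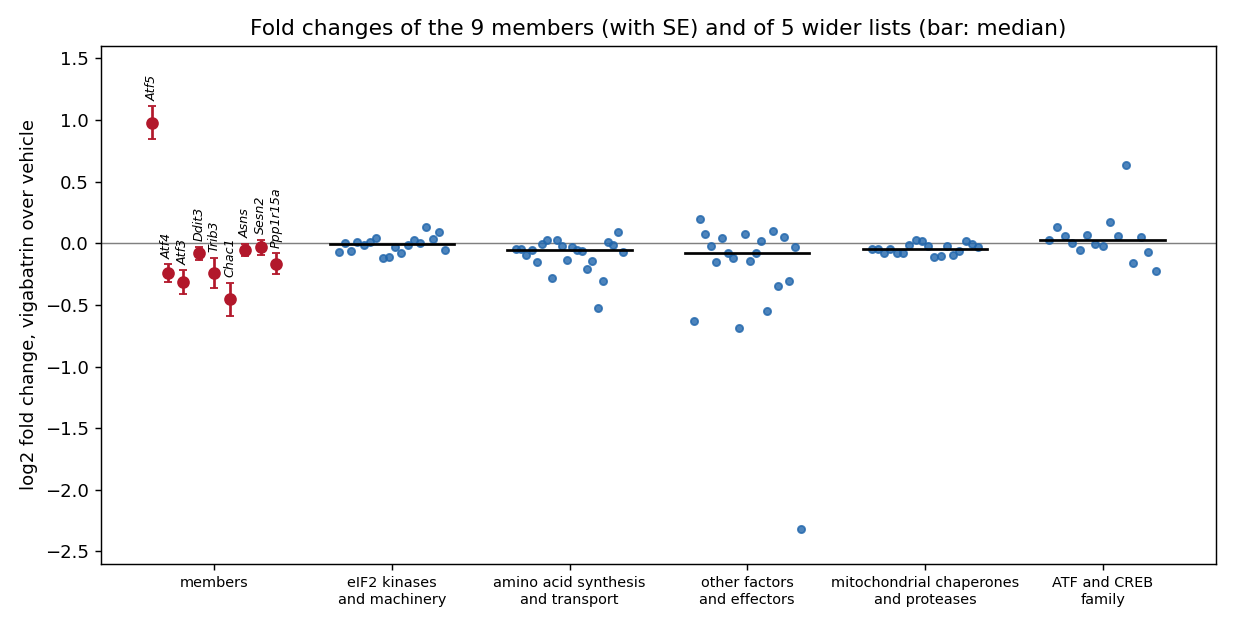
Log2 fold change of vigabatrin over vehicle for the 9 members, with standard errors, and for the tested genes of the 5 wider lists, with a bar at each list's median. Atf5 at 0.98 lies above every other point, the list medians lie between -0.08 and 0.03, and the lowest point is Cdkn1a at -2.31.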

How the data were processed

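The authors deposited raw read counts per Ensembl gene, with gene lengths, for 10 retina libraries. HTSeq 0.6.1, DESeq2, edgeR 3.16.5 and build mm10 are named in the submitters' processing notes. Neither the aligner nor the annotation release or strandedness is stated there. RNA came from frozen retinas by Qiazol extraction, per the labels' protocols. The deposited file holds 1 further count column, which belongs to none of these samples and was not read.

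After filterByExpr and TMM scaling, edgeR 4.0.16 in R 4.3.3 compared the groups by its quasi-likelihood F test (design: group alone), with a Benjamini-Hochberg adjusted p under 0.05 over 17435 genes as the threshold. Standard errors were derived from the fold change and F. CPM uses TMM library sizes, and log2 CPM a prior count of 2. The test was tried on simulated counts with 200 changed genes. DESeq2 1.42.0 and limma-voom 3.58.1 were alternatives. No 2 libraries of a group were alike within counting noise (lowest chi-square/df 7.98). Correlations of group-centred log2 CPM were tested over all 14400 within-group pairings.

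The members and lists were chosen with earlier results of these data known. Named genes were the members, the 2 of smallest p and 2 of highest CPM per list, the 5 most like Atf5 (predicted Gm, Rik and mitochondrial genes left out) and its 2 nearest neighbours. Marker levels follow fixed lists, of which cornea summed to 0.847 to 32.5 CPM, blood to 31.7 to 327 CPM and microglia to 27.1 to 37.9 CPM. The lens gene Lim2 had 3 rows and was left out, and up to 2 of the 12 remaining lens markers were at 0 in a library.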

Additional observations from a re-analysis of the deposited data

Results flagged for a closer look

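A library far from the other 4 of its group was found in 4 of 64 groups examined, for 32 genes, where chance gives about 1 in 20. All 4 were vehicle libraries and none concerned a member. Vehicle 835 was high for Cdkn1a at 48.5 CPM, against 2.29 to 5.56 CPM in the other vehicle libraries. It was also high for Hspa9 at 208 CPM, against 171 to 180.0 CPM. Vehicle 2345 was high for Gcn1l1 at 192 CPM, against 163 to 170.4 CPM, and low for Trap1 at 53.5 CPM, against 57.4 to 58.8 CPM.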

How the results depend on the processing

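Over all genes, 1 was called. The count was 0 with library size only, without a filter on low counts, with a robust fit, without the 4 lens-rich libraries, with lens and pigment epithelium terms and when adjusted for the range of the title number. It was 3 with limma-voom and 87 with DESeq2's Wald test, and 0 to 39 when 1 library was left out. Among the 9 members 0 were called, but 1, Atf5, was called by DESeq2's Wald test and without vigabatrin 2347 or vehicle 2345, so leaving out 1 library gave 0 to 1. For the pairs of members, 1 was called, and 0 to 1 when 1 library was left out. It was 0 without the 4 lens-rich libraries, where the smallest possible p is 0.0278 and a single pair cannot pass over 36. Leaving out single libraries for the spread of Atf5 and the genes most like it was added after seeing the data. Apart from the lens-rich pairs, the cause of these shifts was not tested. Atf5 kept its direction in every alternative, between 0.83 and 1.14. All 8 other members had lower means in every alternative except without vehicle 2345, where 7 did (Sesn2 0.01), and when adjusted for the range of the title number, where 6 did (Ddit3 0.09, Ppp1r15a 0.01). No paired analysis was possible because the groups share no replicate numbers. At 129 counts in its shallowest library, Chac1 is the member most limited by depth.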
